A study of Mus musculus with 39 samples.

Results

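The genes described here are 34 mouse genes of the p53 response, read in brain endothelial cells of newborn pups bred for endothelial deletion of Smad4, of Eng, or of Alk1, whose gene symbol is Acvrl1. They were taken by symbol from a fixed list, out of 24946 genes measured in all tables, and every one was present. The list was chosen by the role of its genes with their mutant against wild-type differences in these same libraries in view. The differences of its members between mutants and wild types are therefore a description, and no p-value is given for any member. By role they comprise p53 itself with its ubiquitin ligase (2 genes), arrest and growth control (8 genes), apoptosis and survival signalling (11 genes), DNA repair (6 genes), and metabolic, redox, secreted and surface proteins (7 genes).

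The 39 libraries fall into 9 groups of C57BL/6 pups. The mutants were Smad4f/f; Cdh5-CreERT2, Alk1f/f; Cdh5-CreERT2 and Engf/f; Cdh5-CreERT2, with 5 libraries each, and their wild types were Smad4f/f, Alk1f/f and Engf/f pups without Cre, also with 5 libraries each. Cdh5-CreERT2 is a recombinase made under the promoter of VE-cadherin, an endothelial gene, and it works after tamoxifen. Tamoxifen was given to mutants and wild types alike, at 300 µg on postnatal days 1 to 3 for Smad4 and Eng, and at 100 µg on day 4 for Alk1. Tissue was taken on day 7, or on day 6 for Alk1. Smad4f/f; Cdh5-CreERT2 pups given 30 µg of LC10, an inhibitor of angiopoietin-2, on days 2 and 4 form a group of 3, as do Smad4f/f; Cdh5-CreERT2 pups given IgG on the same schedule, and Smad4f/f pups given IgG. Every mutant carried Cre and no wild type did, so the loss of the floxed gene and the presence of an active Cre cannot be told apart in any comparison. Dose, age and cohort of the Alk1 pups cannot be told apart from their genotype either. The labels do not say whether a library came from a lone pup or a pool, so p-values measure the spread between these libraries, which may be technical.

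p53, encoded by Trp53, is a transcription factor that is kept scarce by Mdm2, the ligase that marks it for destruction, and accumulates when DNA is damaged, oncogenes are active or ribosomes are stressed. Mdm2 is itself a target, which closes a negative feedback loop. The targets of p53 hold the cell cycle through p21 (Cdkn1a), promote apoptosis through BH3 proteins and death receptors, and take part in repair and in antioxidant defence. p53 is controlled mainly through the stability and modification of the protein, which RNA sequencing does not measure. p53 binds DNA as a tetramer on a site made of a pair of 10-base units, each with a C and a G at fixed places in its core.

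All values are the authors' normalized expression values per gene, without a unit per length, so levels are compared between libraries and not between genes. Between 16125 and 17708 genes were above 0 in a library. The sequencing depth is unknown, since the values are not counts. The targeted gene was checked in each cohort. Smad4 averaged 1819.9 ± 113 in mutants against 5704 ± 264 in wild types (SD, n = 5 each). Eng averaged 10152 ± 1234 in mutants against 63420.4 ± 4121 in wild types of its own cohort (SD, n = 5 each). Acvrl1 averaged 14152 ± 1479.9 in mutants against 15319 ± 1011 in wild types (SD, n = 5 each), and these groups overlapped, so the gene-level value does not check the labels of the Alk1 cohort. The 10 endothelial markers were all present, at 13415 to 15236 ppm of the library sum in Smad4 mutants and 13623 to 15493 ppm in Smad4 wild types, which overlapped widely. They summed to 12243 to 13359 ppm in Alk1 mutants, all below the 13917 to 15092 ppm of Alk1 wild types, and to 13302 to 14012 ppm in Eng mutants against 13983 to 15132 ppm in Eng wild types, which barely overlapped. LC10 mutants held 13663 to 13997 ppm and IgG mutants 14002 to 14322 ppm, below the 14493 to 14952 ppm of IgG wild types. The part of these differences in the results was not tested.

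Matches to the p53 site are shown for the members whose promoter holds a near-complete one, because they let the sequence be set beside the response of the same gene. Promoter windows of 300 bases, 250 before the transcription start and 50 from it on, came from RefSeq on build GRCm38.p6, and 25 of the 34 members had 1 or more, 35 in all. A p53 site was counted where both 10-base units had their core C and G, with at most 2 mismatches in the other positions and at most 1 base between the units. This pattern is its own reverse complement, so a search of 1 strand covers both. It was present in windows of 5 members, or 14.3% of their windows, against 0.682% of all 32851 promoter windows. In the 51 windows of the other p53 targets described further below, the share was 3.92%. The limits on mismatches and spacing were set after matches had been seen, so the shares are a description. In the lines below, each site is given 5′ to 3′ on the strand of its gene with 20 bases on either side, and capitals mark the bases of the site that match the pattern.
Cdkn1a: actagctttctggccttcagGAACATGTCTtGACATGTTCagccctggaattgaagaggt
Ccng1: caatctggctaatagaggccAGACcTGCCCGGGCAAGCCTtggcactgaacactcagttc
Gtse1: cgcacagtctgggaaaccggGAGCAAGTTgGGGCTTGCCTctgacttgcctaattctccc
Bax: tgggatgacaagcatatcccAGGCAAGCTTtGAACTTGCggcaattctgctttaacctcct
Zfp365: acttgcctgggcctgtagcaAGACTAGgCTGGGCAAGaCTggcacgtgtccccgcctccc

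The Cdkn1a site lies at chr17:29090928-29090947, on the plus strand, 51 to 32 bases before the start base of the transcript of that window. It has 1 mismatch. The Ccng1 site, at chr11:40755462-40755481 on the minus strand, and the Gtse1 site, at chr15:85859945-85859964 on the plus strand, also have 1 mismatch each. The Gtse1 site runs over the transcription start of its window. Bax, at chr7:45467079-45467099 on the minus strand, has 2 mismatches and 1 base between the units. Zfp365, at chr10:67912706-67912725 on the minus strand, has 2 mismatches as well. A match describes letters and not occupancy, and the other members' windows held no such match within these limits. Among the windows without a match were those of Eda2r, Phlda3 and Gdf15. Pvt1 and Zmat3 had no window, so no search was made for them. Cdkn1a and Gtse1 each had a further window, at another annotated start, that held none either. To show the Cdkn1a site in its promoter, the whole window, chr17:29090729-29091028, is given below.
Cdkn1a promoter: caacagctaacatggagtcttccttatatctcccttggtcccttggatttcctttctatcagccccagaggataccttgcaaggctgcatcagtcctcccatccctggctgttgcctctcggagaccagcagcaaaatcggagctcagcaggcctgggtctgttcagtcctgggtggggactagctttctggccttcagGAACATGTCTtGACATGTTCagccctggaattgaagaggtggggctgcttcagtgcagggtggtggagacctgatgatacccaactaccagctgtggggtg

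Most of the 34 genes were higher in Smad4 and Eng mutants and in IgG-treated Smad4 mutants, and fewer were in Alk1 mutants. The median log2 difference over the 34 genes was 1.09 for Smad4, 0.46 for Alk1, 1.05 for Eng and 0.91 under IgG, whereas the median over all genes tested lay between -0.01 and 0.003. In the Smad4, Eng and IgG comparisons the 5 largest differences belonged to the receptor gene Eda2r, the Akt inhibitor Phlda3, the cytokine Gdf15, the long non-coding RNA Pvt1 and the zinc finger gene Zfp365. In the Alk1 comparison the largest were those of Eda2r, the p21 gene Cdkn1a, Phlda3 and Zfp365. A minority went the other way or hardly moved, among them the repair genes Xpc and Ddb2.

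Calls were made with limma on log2(value + 2), with a Benjamini-Hochberg adjusted p under 0.05 over all genes tested. In the Smad4 cohort 26 of the 34 members were called higher and 4 lower, where 17.2% of all 14012 tested genes were called higher and 15.8% lower. For Alk1, 17 of 33 tested members were called higher and 3 lower, beside 17.5% and 15.7% of all 13635 tested genes. Gdf15 did not reach the minimum of 20 in 5 Alk1 libraries and was not tested there. For Eng, 25 members were called higher and 2 lower, beside 12.4% and 9.08% of 14350 genes. Under IgG, 23 were called higher and 1 lower, beside 9.67% and 8.12% of 13939 genes. The list was chosen with these contrasts known, so nothing is read from the counts. Mutants and wild types did not overlap, with mutants higher, for 25 members in the Smad4, 14 in the Alk1, 24 in the Eng and 24 in the IgG comparison, where 12.6%, 13.3%, 10.2% and 22.3% of all tested genes did so. With mutants lower this held for 1 member for Smad4, beside 10.2% of tested genes, for 2 for Alk1, beside 11.2%, for 1 for Eng, beside 6.37%, and for 4 under IgG, beside 18.7%. Mutants were higher without overlap in all 4 comparisons for 12 members, in 3 comparisons for another 12, and in none for 8. Of the 13447 genes tested in all 4 comparisons, 2.5%, 5.29% and 66.9% did so.

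**Figure D1:**
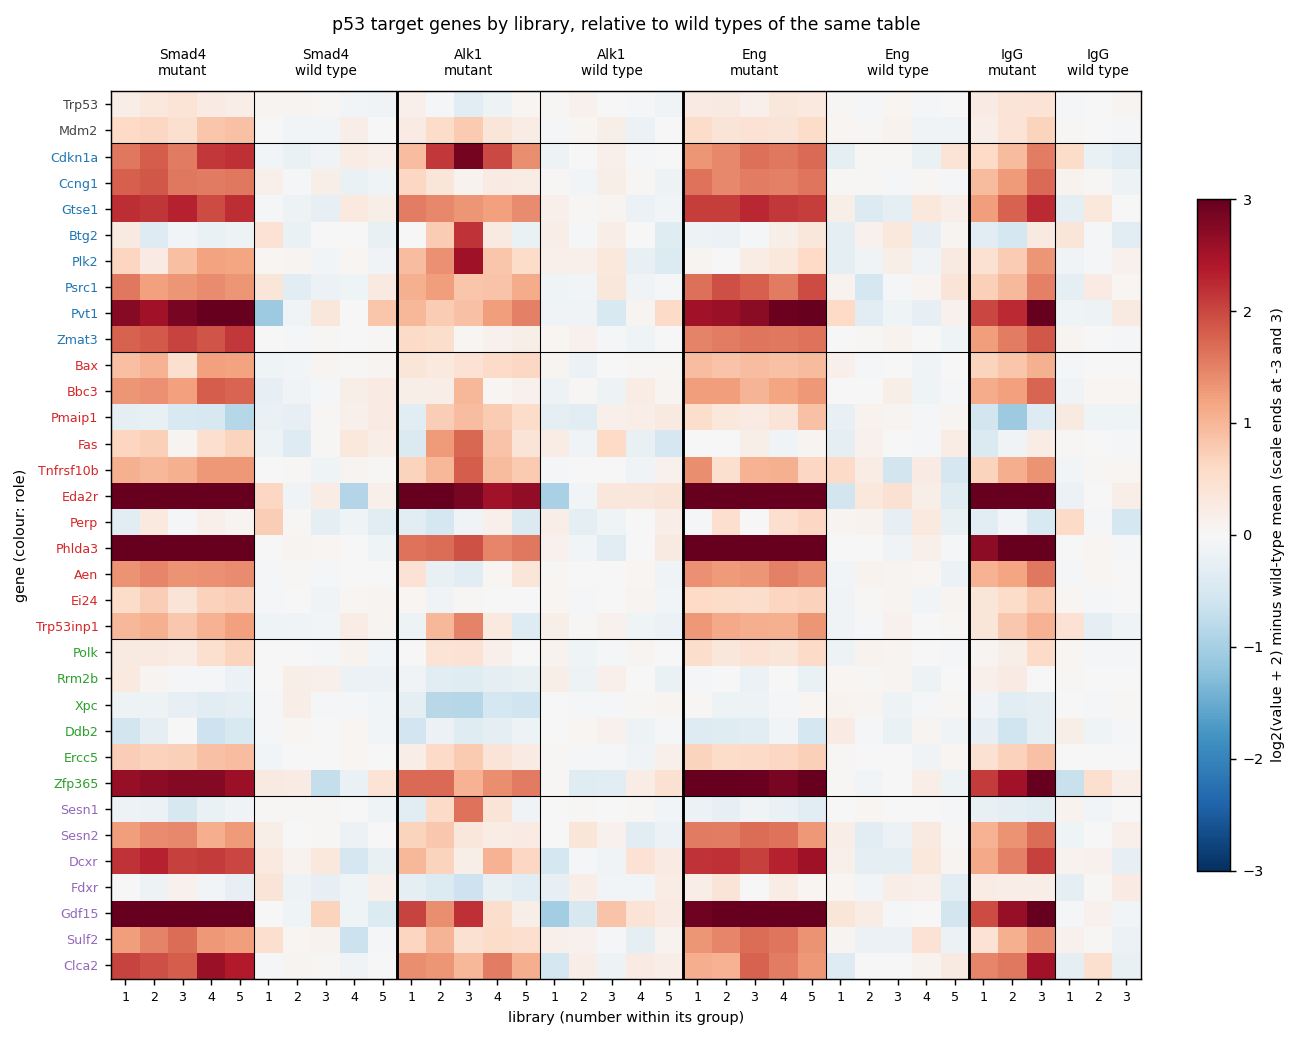
Each row is a p53 target gene and each column a library, coloured by log2(value + 2) minus the mean of the wild types of the same table, with mutants left of their wild types. Eda2r, Phlda3, Zfp365, Gdf15 and Pvt1 stand out in the Smad4, Eng and IgG-treated mutants, and Alk1 mutant 3 stands apart in Cdkn1a, Btg2, Plk2 and Sesn1.

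**Figure D2:**
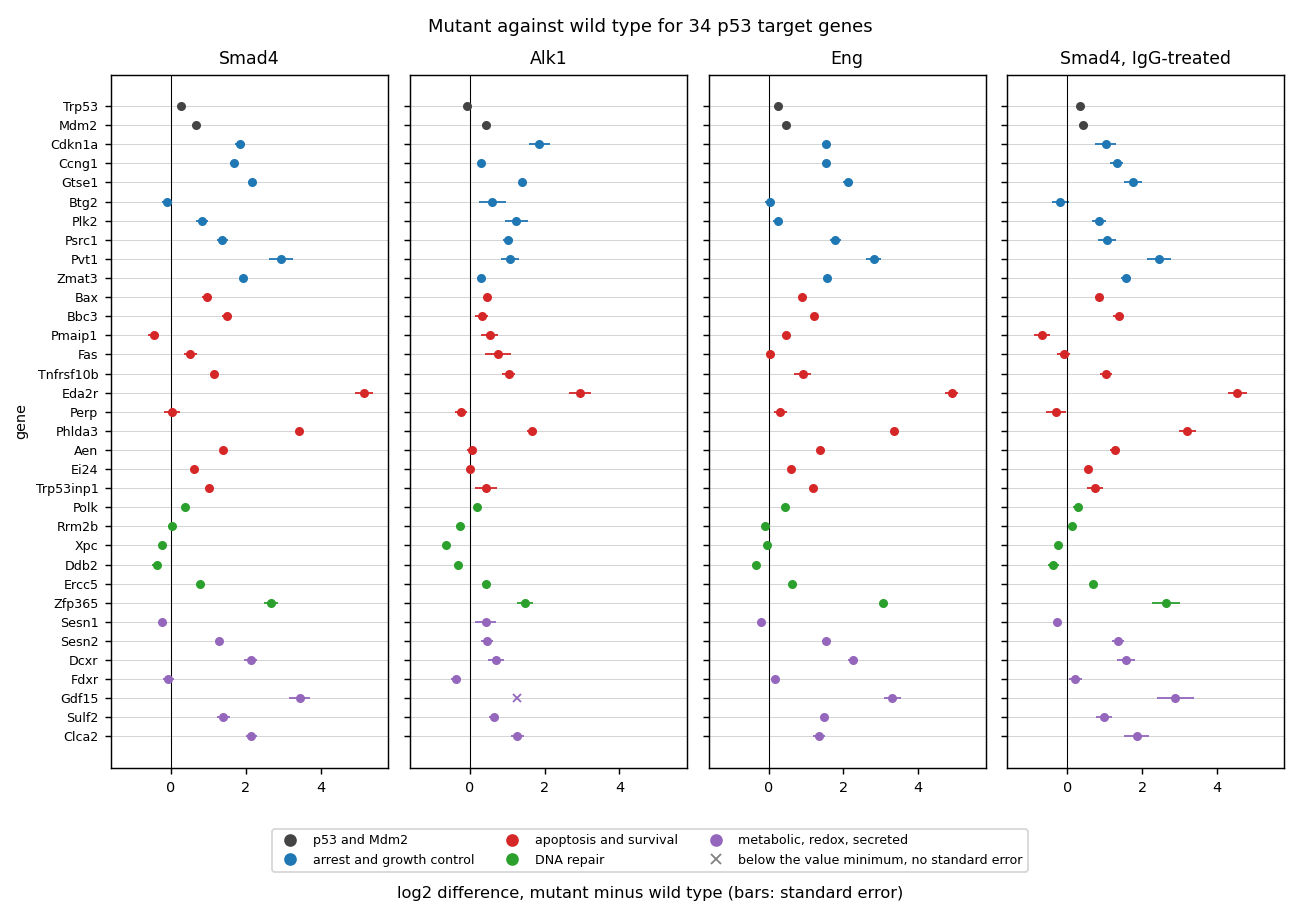
Points are log2 differences, mutant minus wild type, of the 34 genes in 4 comparisons, and bars are standard errors from limma (5 against 5 libraries, or 3 against 3 under IgG); the cross is Gdf15 in the Alk1 cohort, which was below the minimum. Eda2r is the highest point in each panel, at 5.16 for Smad4, 2.96 for Alk1, 4.89 for Eng and 4.55 under IgG.

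In the bulk libraries, fewer cells of a type and less RNA per cell cannot be told apart. Markers of other cell types moved beside the p53 genes in the Smad4 comparisons. The 8 pericyte markers summed to 449 to 1475 ppm in Smad4 mutants against 1720.2 to 2434 ppm in wild types, with 5 of 8 called lower, and to 1118 to 2167 ppm in IgG mutants against 2311 to 3124 ppm in IgG wild types, with 3 of 8 called lower. In the Eng cohort they summed to 1716 to 3031 ppm in mutants and 1793 to 3020.1 ppm in wild types, with none called at the adjusted threshold, and in the Alk1 cohort to 1711 to 3355 ppm in mutants and 2675 to 3349.7 ppm in wild types, with 2 called lower. Neuronal markers summed to 64.5 to 145 ppm in Smad4 mutants against 105 to 187 ppm in wild types, with 6 of 8 called lower. Under IgG 2 of the 8 were called lower, in Alk1 mutants 1, and in Eng mutants none. Microglial markers summed to 251 to 435 ppm in IgG mutants against 462 to 919 ppm in IgG wild types, with 4 of 8 called lower. In untreated Smad4 mutants they summed to 89.2 to 524 ppm against 199 to 615 ppm in wild types, with none called. In Eng mutants none was called either, and in Alk1 mutants 2 were called higher. Of the astrocyte and oligodendrocyte markers, 2 and 3 were called lower in Smad4 mutants, 2 and 2 under IgG, and 0 in Alk1 and Eng mutants. Of the 3 or 4 erythroid markers tested, 3 were called lower in each untreated cohort, with sums of 294 to 561 ppm in Smad4 mutants against 889 to 1369.9 ppm in wild types. A covariate was made from the mean log2 level of the neuronal, astrocyte and oligodendrocyte markers, called carryover markers here. It held no pericyte, microglial or erythroid marker. With it, members called higher numbered 24 for Smad4, 18 for Alk1, 25 for Eng and 14 under IgG. Of all genes, 2344, 4856, 3144 and 1106 were called in either direction with it, and 4620, 4530, 3082 and 2480 without it. The members were chosen with these contrasts known, so nothing is read from the counts.

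The p53 gene and its ligase moved little by comparison with the strongest targets. Trp53 measured 3873, 4209.6, 4437, 4015 and 3885 in Smad4 mutants against 3534, 3554, 3464, 3173 and 3103 in Smad4 wild types, a log2 difference of 0.28 ± 0.06. For Alk1, Trp53 measured 3972, 3407, 2847, 3236 and 3695 in mutants against 3663, 3887, 3582, 3420.2 and 3317 in wild types, a log2 difference of -0.07 ± 0.09. The Smad4 groups did not overlap, and the Alk1 groups did. For Eng, Trp53 measured 5199, 5303, 4886, 5599 and 5382 in mutants against 4489, 4278, 4632, 4290.3 and 4389 in wild types, a log2 difference of 0.26 ± 0.04. Under IgG, Trp53 measured 3914, 4261 and 4341 in mutants against 3158, 3247 and 3456 in wild types, a log2 difference of 0.34 ± 0.06. In both, the mutants lay above the wild types without overlap. Trp53 lies at chr11:69580359-69591873 on the plus strand of GRCm38.

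Mdm2 measured 2301, 2356, 2132, 2699 and 2786 in Smad4 mutants against 1498, 1433, 1425, 1736 and 1526 in Smad4 wild types, a log2 difference of 0.68 ± 0.08. For Alk1, Mdm2 measured 1849, 2283, 2699, 1999 and 1828 in mutants against 1525, 1624, 1759, 1380.1 and 1544 in wild types, a log2 difference of 0.43 ± 0.11. The ligase transcript was higher in every mutant of either cohort than in any of its wild types. For Eng, Mdm2 measured 2883, 2564, 2661, 2558 and 2880.4 in mutants against 2045, 2020.5, 2129, 1819 and 1831 in wild types, a log2 difference of 0.46 ± 0.06. Under IgG, Mdm2 measured 1805, 2081 and 2516 in mutants against 1614, 1559 and 1540.2 in wild types, a log2 difference of 0.43 ± 0.11. In these comparisons too no mutant reached down to a wild type, the nearest being IgG mutant 1.

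Of the 8 genes of arrest and growth control, 7 were called higher in Smad4 mutants, 6 in Alk1 mutants, 6 in Eng mutants and 7 under IgG, and none lower. In the same comparisons 17.2%, 17.5%, 12.4% and 9.67% of all tested genes were called higher, and 15.8%, 15.7%, 9.08% and 8.12% lower. Nothing is read from the counts by role, here or below. Cdkn1a encodes p21, the inhibitor of cyclin-dependent kinases that carries much of the arrest by p53, and lies at chr17:29090976-29100727. Cdkn1a measured 7459.7, 8734, 7268, 10784 and 11325 in Smad4 mutants against 2328, 2165, 2285, 2899 and 2755 in Smad4 wild types, a log2 difference of 1.86 ± 0.14. For Alk1, Cdkn1a measured 5117, 11612, 19684, 10575 and 7025 in mutants against 2411, 2710.3, 2951, 2624 and 2704 in wild types, a log2 difference of 1.86 ± 0.28. The Alk1 mutants spread widely, with mutant 3 at the top and mutant 1 at the bottom, and no mutant overlapped a wild type. For Eng, Cdkn1a measured 8770.0, 9519, 11016, 10519 and 11489 in mutants against 2930.3, 3594, 3593, 3063 and 4714 in wild types, a log2 difference of 1.53 ± 0.12. Under IgG, Cdkn1a measured 4880.1, 6209 and 9277 in mutants against 4677, 2796 and 2535 in wild types, a log2 difference of 1.03 ± 0.28. The IgG mutants were just clear of the highest wild type, IgG wild type 1. An unstranded library cannot separate Cdkn1a from an annotated transcript that overlaps its exons on the other strand.

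Ccng1 encodes cyclin G1, a target of p53 that acts with a phosphatase on Mdm2. Ccng1 measured 3799, 4013, 3293, 3228 and 3261 in Smad4 mutants against 1224, 1068, 1245, 956 and 1002 in Smad4 wild types, a log2 difference of 1.68 ± 0.09. For Alk1, Ccng1 measured 1981, 1649, 1370.5, 1512 and 1494 in mutants against 1310.0, 1204, 1434, 1306 and 1153 in wild types, a log2 difference of 0.31 ± 0.10. Smad4 mutants stood far above their wild types, while Alk1 mutant 3 lay inside the wild-type range. For Eng, Ccng1 measured 5199, 4586, 4839, 4778 and 5104 in mutants against 1715, 1727, 1606, 1714 and 1624 in wild types, a log2 difference of 1.55 ± 0.04. Under IgG, Ccng1 measured 2437, 3068 and 4121 in mutants against 1355, 1296 and 1136 in wild types, a log2 difference of 1.32 ± 0.17. Both sets of mutants were clear of their wild types, and the Eng mutants lay within a narrow band. The promoter of Ccng1 carries the site with 1 mismatch printed above.

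Zmat3 encodes an RNA-binding zinc finger protein induced by p53. Zmat3 measured 4639, 4833, 5569, 5049 and 5934 in Smad4 mutants against 1349.8, 1296, 1381, 1369 and 1391 in Smad4 wild types, a log2 difference of 1.93 ± 0.07. For Alk1, Zmat3 measured 2115, 2053, 1477, 1569 and 1605 in mutants against 1492, 1549, 1399, 1293 and 1406 in wild types, a log2 difference of 0.29 ± 0.11. As for Ccng1, the Smad4 groups were far apart, and Alk1 mutants 1 and 2 alone exceeded all wild types by a clear margin, with mutant 3 inside the wild-type range. For Eng, Zmat3 measured 6222, 6429.8, 6806, 6722 and 6921 in mutants against 2223, 2291, 2404, 2196 and 2053 in wild types, a log2 difference of 1.57 ± 0.05. Under IgG, Zmat3 measured 3538, 4299 and 5389.5 in mutants against 1550.0, 1453 and 1416 in wild types, a log2 difference of 1.56 ± 0.14. No mutant approached its wild types here.

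Gtse1 encodes a protein made in S and G2 phase that moves p53 out of the nucleus. Gtse1 measured 1339.7, 1279, 1447, 1126 and 1348 in Smad4 mutants against 279, 258, 245, 352 and 326 in Smad4 wild types, a log2 difference of 2.16 ± 0.11. For Alk1, Gtse1 measured 1031, 959, 889.8, 827 and 946 in mutants against 392, 359, 374, 309 and 331 in wild types, a log2 difference of 1.39 ± 0.09. In both cohorts all mutants were above all wild types. For Eng, Gtse1 measured 1656, 1652, 1892, 1711 and 1649.7 in mutants against 443, 292, 319.8, 491 and 452 in wild types, a log2 difference of 2.12 ± 0.13. Under IgG, Gtse1 measured 769, 1109.7 and 1526 in mutants against 265, 400.4 and 318 in wild types, a log2 difference of 1.75 ± 0.25. The groups were again apart, and the IgG mutants differed among themselves more than the Eng mutants did. Psrc1 encodes a spindle protein and is listed among p53-responsive genes. Psrc1 measured 425, 332, 355, 380.1 and 358 in Smad4 mutants against 182, 112, 124, 129 and 169 in Smad4 wild types, a log2 difference of 1.38 ± 0.15. For Alk1, Psrc1 measured 299, 340.3, 252, 258 and 308 in mutants against 129, 134, 179.8, 132 and 138 in wild types, a log2 difference of 1.02 ± 0.13. No mutant of these cohorts overlapped a wild type. For Eng, Psrc1 measured 467, 568, 516, 434 and 574 in mutants against 158, 102, 141, 154 and 192 in wild types, a log2 difference of 1.78 ± 0.15. Under IgG, Psrc1 measured 243, 293 and 428 in mutants against 120.0, 177 and 153 in wild types, a log2 difference of 1.07 ± 0.24. This held in the Eng and IgG comparisons as well.

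Pvt1 is a long non-coding RNA next to Myc, with a p53-dependent isoform. Pvt1 measured 173, 149, 188, 245 and 267 in Smad4 mutants against 10.4, 22.4, 31.4, 24.7 and 44.6 in Smad4 wild types, a log2 difference of 2.94 ± 0.33. For Alk1, Pvt1 measured 55.5, 47.4, 51.1, 67.2 and 80.9 in mutants against 24.9, 25.004, 19.2, 28.5 and 41.1 in wild types, a log2 difference of 1.08 ± 0.24. Values were low in all wild types; Smad4 mutants were far above them and Alk1 mutants just above. For Eng, Pvt1 measured 209, 218, 237, 279 and 359.9 in mutants against 53.5, 27.1, 31.4, 29.1 and 38.2 in wild types, a log2 difference of 2.81 ± 0.21. Under IgG, Pvt1 measured 103, 123 and 224 in mutants against 22.2, 21.8 and 29.9 in wild types, a log2 difference of 2.45 ± 0.32. The groups were apart in both, and IgG mutant 3 stood above the other mutants. Plk2 encodes a polo-like kinase of the cell's stress response. Plk2 measured 14489.9, 10877, 17339, 21153 and 21066 in Smad4 mutants against 9539, 9689.6, 8666, 9639.7 and 8606 in Smad4 wild types, a log2 difference of 0.84 ± 0.16. For Alk1, Plk2 measured 15170.2, 20685, 46294, 14185 and 11620.0 in mutants against 8912, 8842, 9856, 6856 and 6035 in wild types, a log2 difference of 1.24 ± 0.31. All mutants were above all wild types, and Alk1 mutant 3 had more than any other library of its cohort. For Eng, Plk2 measured 11701, 10909, 12806, 13713 and 16616 in mutants against 9213, 10249, 12524, 10283 and 13356 in wild types, a log2 difference of 0.24 ± 0.12. Under IgG, Plk2 measured 10306, 12799 and 18864 in mutants against 7064, 7374 and 8258 in wild types, a log2 difference of 0.84 ± 0.19. The Eng groups overlapped and the IgG groups did not.

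Btg2, an antiproliferative gene that also responds early to tissue stress, overlapped between the groups in all 4 comparisons. Its values ran from 4762 to 7464 in Smad4 mutants and 5277 to 8390.4 in Smad4 wild types. Alk1 mutants spanned 2891 to 15048 and Alk1 wild types 2602 to 3848, the top value being mutant 3. Eng mutants spanned 5895 to 8424 against 5394 to 8225 in wild types, and IgG mutants 5012 to 8731 against 5721 to 9325. Btg2 was not called in any comparison.

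**Figure D3:**
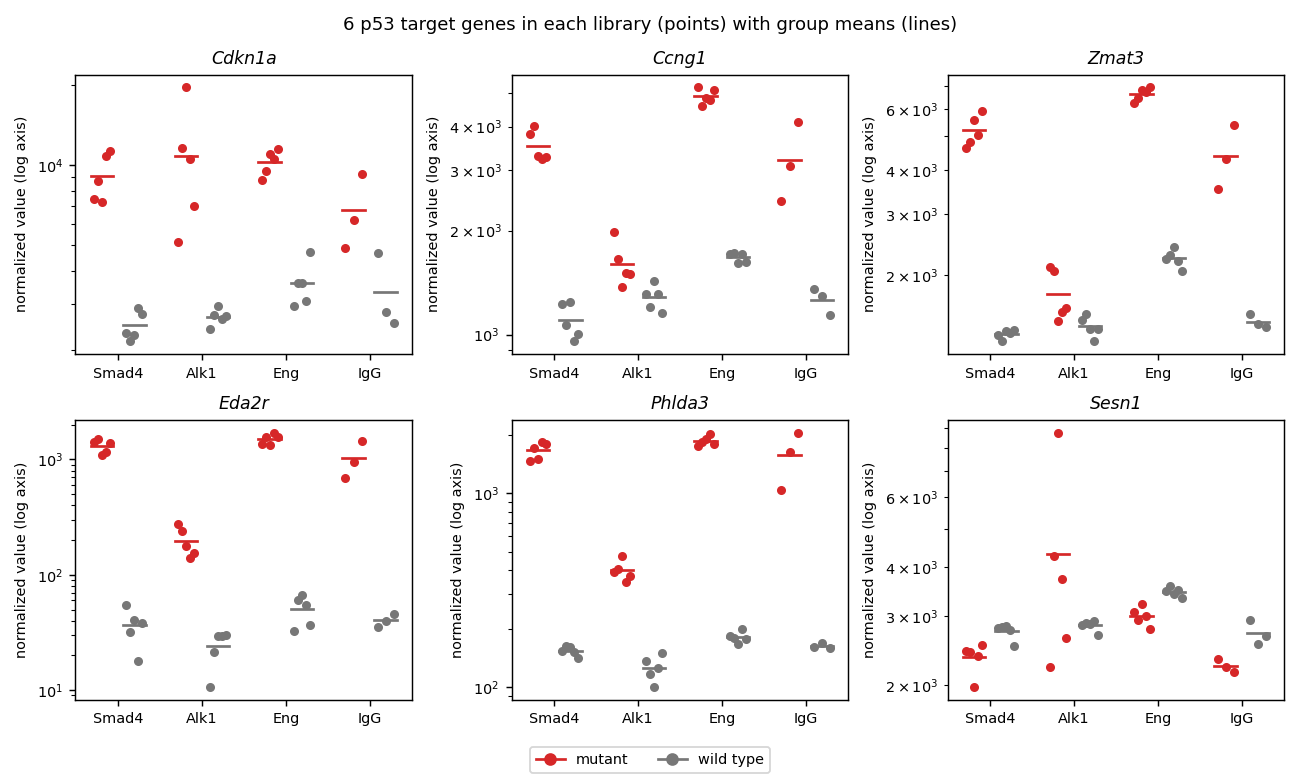
Normalized values of 6 genes on log axes, with each library as a point, group means as lines, and mutants left of wild types in each comparison. Ccng1 and Zmat3 separate widely in all but the Alk1 comparison, Cdkn1a separates in all 4, and Sesn1 is higher than its wild types in Alk1 mutants 2, 3 and 4.

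Among the 11 genes of apoptosis and survival, 9 were called higher in Smad4 mutants, 4 in Alk1 mutants, 9 in Eng mutants and 7 under IgG. The shares of all tested genes called higher were 17.2%, 17.5%, 12.4% and 9.67%. Pmaip1 was the member called lower, in Smad4 mutants, where 15.8% of all tested genes were called lower. Eda2r, at chrX:97333840-97377216, encodes a receptor of the tumour necrosis factor family that binds ectodysplasin A2. Eda2r measured 1418, 1507, 1104, 1155 and 1386 in Smad4 mutants against 54.3, 32.2, 40.5, 17.9 and 38.5 in Smad4 wild types, a log2 difference of 5.16 ± 0.24. For Alk1, Eda2r measured 274, 242, 177, 140.2 and 154 in mutants against 10.6, 21.5, 29.5, 29.5 and 30.4 in wild types, a log2 difference of 2.96 ± 0.29. Wild types held low values throughout, and even the lowest Alk1 mutant was several times above the highest of them. For Eng, Eda2r measured 1351, 1574, 1324, 1696 and 1577 in mutants against 32.6, 60.7, 66.9, 54.8 and 37.05 in wild types, a log2 difference of 4.89 ± 0.18. Under IgG, Eda2r measured 689, 943 and 1448 in mutants against 35.1, 39.6 and 46.1 in wild types, a log2 difference of 4.55 ± 0.26. Eda2r had the largest log2 difference of the 34 genes in each of the 4 comparisons.

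Phlda3, at chr1:135766119-135769136, encodes a small protein that keeps the kinase Akt from the membrane. Phlda3 measured 1476, 1706, 1509, 1837 and 1793 in Smad4 mutants against 153, 162, 161, 151 and 141 in Smad4 wild types, a log2 difference of 3.42 ± 0.09. For Alk1, Phlda3 measured 393, 405, 477, 350.0 and 374 in mutants against 136, 117, 99.7, 126 and 150.1 in wild types, a log2 difference of 1.66 ± 0.13. Both cohorts were fully apart, with the Alk1 mutants nearer to their wild types. For Eng, Phlda3 measured 1752, 1834, 1914, 2030.5 and 1793 in mutants against 182, 178, 166, 199.7 and 177 in wild types, a log2 difference of 3.35 ± 0.07. Under IgG, Phlda3 measured 1046, 1627 and 2048 in mutants against 160.1, 168 and 159 in wild types, a log2 difference of 3.21 ± 0.22. The Eng groups lay within narrow bands far from each other, and IgG mutant 1 was below the other mutants. Tnfrsf10b encodes the mouse receptor for the death ligand TRAIL. Tnfrsf10b measured 1159, 1102, 1150.0, 1358 and 1360.2 in Smad4 mutants against 547, 561, 504, 577 and 560.4 in Smad4 wild types, a log2 difference of 1.15 ± 0.08. For Alk1, Tnfrsf10b measured 832, 1047, 1853, 1011 and 899.7 in mutants against 501, 527, 527, 488 and 575 in wild types, a log2 difference of 1.04 ± 0.18. Every mutant exceeded every wild type, and Alk1 mutant 3 exceeded the other mutants. For Eng, Tnfrsf10b measured 2671, 1415, 2109, 2129 and 1557 in mutants against 1522, 1188, 700.3, 1219 and 715 in wild types, a log2 difference of 0.91 ± 0.23. Under IgG, Tnfrsf10b measured 847, 1136 and 1367 in mutants against 499.7, 545 and 553 in wild types, a log2 difference of 1.04 ± 0.16. Eng mutant 2 fell inside the range of the wild types, whereas the IgG groups did not overlap.

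Bax encodes the pore-forming protein of mitochondrial apoptosis, and its exons overlap those of the gene model Gm45808, so reads may be shared. Bax measured 2116, 2319, 1576, 2654 and 2595 in Smad4 mutants against 1033, 1073, 1195, 1161 and 1200.2 in Smad4 wild types, a log2 difference of 0.97 ± 0.13. For Alk1, Bax measured 1322, 1244, 1376, 1524 and 1579 in mutants against 1082, 902, 1030.0, 1043 and 1052 in wild types, a log2 difference of 0.46 ± 0.08. No mutant overlapped a wild type. For Eng, Bax measured 2407, 2308, 2396, 2322 and 2453 in mutants against 1419, 1214, 1274, 1171 and 1283 in wild types, a log2 difference of 0.90 ± 0.05. Under IgG, Bax measured 1677, 1886 and 2210.5 in mutants against 1038, 1067 and 1077 in wild types, a log2 difference of 0.85 ± 0.10. Nor did any in these comparisons. Bbc3 encodes Puma, a BH3 protein that activates Bax. Bbc3 measured 1100.2, 1141, 1043, 1563 and 1477 in Smad4 mutants against 371, 409, 423, 495 and 518 in Smad4 wild types, a log2 difference of 1.5002 ± 0.13. For Alk1, Bbc3 measured 449.7, 454, 793, 415 and 437 in mutants against 354, 403, 357, 459 and 416 in wild types, a log2 difference of 0.32 ± 0.17. Smad4 mutants were well above their wild types, and of the Alk1 mutants mutant 3 alone stood clear. For Eng, Bbc3 measured 1208, 1215, 1032, 1156 and 1244 in mutants against 506, 505, 574, 460.2 and 486 in wild types, a log2 difference of 1.21 ± 0.07. Under IgG, Bbc3 measured 1045, 1134 and 1599.6 in mutants against 445, 495 and 496 in wild types, a log2 difference of 1.37 ± 0.15. Both comparisons were free of overlap.

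Pmaip1 encodes Noxa, another BH3 protein, and behaved unlike Bbc3. Pmaip1 measured 330.3, 339, 289, 285 and 221 in Smad4 mutants against 346, 335, 408, 446 and 475 in Smad4 wild types, a log2 difference of -0.46 ± 0.14. For Alk1, Pmaip1 measured 283, 598, 684, 605 and 524 in mutants against 292, 285, 398, 409 and 430.4 in wild types, a log2 difference of 0.53 ± 0.22. Smad4 mutants lay at or below the wild types, with slight overlap, while 4 of the 5 Alk1 mutants lay above theirs. For Eng, Pmaip1 measured 695, 599, 568, 630.0 and 890.1 in mutants against 413, 520.0, 508, 469 and 511 in wild types, a log2 difference of 0.47 ± 0.12. Under IgG, Pmaip1 measured 280.0, 190.3 and 315 in mutants against 494, 375 and 373 in wild types, a log2 difference of -0.67 ± 0.21. Eng mutants were all above and IgG-treated Smad4 mutants all below their wild types.

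Aen encodes an exonuclease that degrades DNA in apoptosis. Aen measured 1985, 2136, 1985, 2030.1 and 2097 in Smad4 mutants against 755, 793, 763, 791 and 791 in Smad4 wild types, a log2 difference of 1.39 ± 0.05. For Alk1, Aen measured 1352, 862, 786, 1036 and 1288 in mutants against 1025, 997, 999, 1046 and 929.7 in wild types, a log2 difference of 0.06 ± 0.14. Smad4 groups were wide apart, and Alk1 mutants lay on both sides of their wild types. For Eng, Aen measured 2768, 2615, 2703, 3049 and 2873 in mutants against 1012, 1162, 1139.6, 1111 and 957 in wild types, a log2 difference of 1.38 ± 0.06. Under IgG, Aen measured 1528, 1691 and 2202 in mutants against 708, 776 and 737 in wild types, a log2 difference of 1.27 ± 0.13. Mutants were clear of wild types in both. Ei24 encodes a membrane protein of the endoplasmic reticulum found as etoposide-induced. Ei24 measured 5301, 6064, 4764, 5858 and 6061 in Smad4 mutants against 3516, 3613, 3366, 3805 and 3846 in Smad4 wild types, a log2 difference of 0.62 ± 0.07. For Alk1, Ei24 measured 3954, 3546, 3902, 3749 and 3795 in mutants against 3941, 3641, 3804, 4023 and 3610.2 in wild types, a log2 difference of -0.01 ± 0.06. All Smad4 mutants were above all wild types, and the Alk1 groups lay in the same range. For Eng, Ei24 measured 7044, 6772, 6714, 7259 and 7548 in mutants against 4301, 4743, 4877, 4408 and 4897 in wild types, a log2 difference of 0.61 ± 0.05. Under IgG, Ei24 measured 4452, 5098 and 5967 in mutants against 3595, 3388 and 3446 in wild types, a log2 difference of 0.56 ± 0.10. Again the mutants were above without overlap. An antisense gene overlaps the exons of Ei24 and its reads cannot be told apart.

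Trp53inp1 encodes a nuclear protein that promotes the phosphorylation of p53. Trp53inp1 measured 4419, 4656, 3875, 4626 and 5199 in Smad4 mutants against 2045, 2078, 2113, 2580.4 and 2369 in Smad4 wild types, a log2 difference of 1.02 ± 0.09. For Alk1, Trp53inp1 measured 1721, 3800.0, 5339, 2338 and 1451 in mutants against 2137, 1946, 2072, 1738 and 1673 in wild types, a log2 difference of 0.45 ± 0.29. The Smad4 groups were apart, and Alk1 mutants 2, 3 and 4 were above all wild types while mutant 5 was below them. For Eng, Trp53inp1 measured 5489.6, 4845, 4713, 4669.8 and 5532 in mutants against 2068, 2135, 2420.3, 2193 and 2264 in wild types, a log2 difference of 1.19 ± 0.06. Under IgG, Trp53inp1 measured 3313, 4483 and 5285 in mutants against 3448, 2085 and 2365 in wild types, a log2 difference of 0.74 ± 0.22. The Eng groups were apart, and IgG wild type 1 lay above IgG mutant 1. Fas, the death receptor, ran from 184 to 290.2 in Smad4 mutants and 134 to 217 in wild types, and from 109 to 498 in Alk1 mutants and 106 to 227 in wild types. It spanned 192 to 235 in Eng mutants and 172 to 240.1 in wild types, and 162 to 255 in IgG mutants and 213 to 225 in IgG wild types. Perp, a tetraspan membrane protein of desmosomes, spanned 156 to 243, 109 to 176, 168 to 268 and 161 to 209 in the Smad4, Alk1, Eng and IgG mutants, against 156 to 333, 130.3 to 180.4, 145.9 to 212 and 154 to 331 in the matching wild types. Both genes overlapped between groups in all 4 comparisons, and Fas was called higher in Smad4 mutants alone.

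The 6 repair genes did not move together. In Smad4 mutants 3 were called higher and 2 lower, in Alk1 mutants 2 and 3, in Eng mutants 3 and 1, and under IgG 2 and 0. The shares of all tested genes were 17.2% and 15.8%, 17.5% and 15.7%, 12.4% and 9.08%, and 9.67% and 8.12%. With only 6 genes, nothing is read from these counts. Zfp365, at chr10:67886103-67912662, encodes a protein that protects stalled replication forks. Zfp365 measured 641, 682, 712, 707 and 622 in Smad4 mutants against 125, 123, 62.4, 89.5 and 138 in Smad4 wild types, a log2 difference of 2.67 ± 0.19. For Alk1, Zfp365 measured 172, 171, 109, 140.3 and 156 in mutants against 52.7, 39.6, 40.2, 60.7 and 72.2 in wild types, a log2 difference of 1.48 ± 0.20. All mutants were above all wild types, by more in the Smad4 cohort. For Eng, Zfp365 measured 1034, 1070.3, 938, 873 and 1161 in mutants against 122, 112, 118, 137 and 106 in wild types, a log2 difference of 3.07 ± 0.10. Under IgG, Zfp365 measured 328, 439 and 758 in mutants against 46.7, 106 and 86.4 in wild types, a log2 difference of 2.63 ± 0.38. The Eng groups were far apart, and IgG mutants ranged widely above their wild types. Ercc5 encodes the XPG endonuclease of nucleotide excision repair. Ercc5 measured 2174, 2083, 2127, 2378 and 2454 in Smad4 mutants against 1223, 1292, 1299, 1358 and 1313 in Smad4 wild types, a log2 difference of 0.79 ± 0.06. For Alk1, Ercc5 measured 1419.8, 1853, 2136, 1639.9 and 1466 in mutants against 1278, 1203, 1215, 1157 and 1379.9 in wild types, a log2 difference of 0.44 ± 0.11. Both cohorts were without overlap, although Alk1 mutant 1 was close to the highest wild type. For Eng, Ercc5 measured 2586, 2387, 2454, 2513 and 2686 in mutants against 1671, 1664, 1621, 1532 and 1702 in wild types, a log2 difference of 0.62 ± 0.04. Under IgG, Ercc5 measured 1588, 1870.3 and 2136 in mutants against 1152, 1176 and 1149.7 in wild types, a log2 difference of 0.67 ± 0.10. These groups were apart as well.

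Polk encodes a DNA polymerase that copies past lesions. Polk measured 1138, 1141, 1101, 1319 and 1514 in Smad4 mutants against 957, 947, 921, 1017 and 887 in Smad4 wild types, a log2 difference of 0.38 ± 0.09. For Alk1, Polk measured 850.1, 1124, 1142, 948 and 859.7 in mutants against 916, 773, 834, 893 and 839 in wild types, a log2 difference of 0.20 ± 0.10. The Smad4 groups were narrowly apart and the Alk1 groups overlapped. For Eng, Polk measured 1672, 1463, 1561, 1486 and 1719 in mutants against 1046, 1253, 1223, 1175 and 1103 in wild types, a log2 difference of 0.45 ± 0.06. Under IgG, Polk measured 1100.5, 1171 and 1546 in mutants against 1089, 1017 and 1021 in wild types, a log2 difference of 0.27 ± 0.12. Mutants were above wild types in both, with IgG mutant 1 just clear of IgG wild type 1. Xpc encodes the damage sensor of global nucleotide excision repair. Xpc measured 1175, 1169, 1091, 1021 and 1053 in Smad4 mutants against 1267, 1497, 1271, 1249 and 1231 in Smad4 wild types, a log2 difference of -0.24 ± 0.07. For Alk1, Xpc measured 1084, 749, 734, 931 and 877 in mutants against 1346, 1272, 1288, 1366 and 1401 in wild types, a log2 difference of -0.62 ± 0.10. Here the mutants lay below all wild types in both cohorts. For Eng, Xpc measured 1696, 1494, 1476, 1584 and 1729.6 in mutants against 1775, 1759, 1479, 1592 and 1683 in wild types, a log2 difference of -0.05 ± 0.06. Under IgG, Xpc measured 1193, 1014 and 1039 in mutants against 1271, 1242 and 1311 in wild types, a log2 difference of -0.24 ± 0.08. The Eng groups overlapped, and the IgG mutants were below their wild types.

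Ddb2 encodes the partner sensor of ultraviolet damage; its exons overlap Acp2 on the other strand, so reads may be shared. Ddb2 measured 215, 263, 316, 204 and 229 in Smad4 mutants against 309, 331, 319.7, 329 and 298 in Smad4 wild types, a log2 difference of -0.38 ± 0.12. For Alk1, Ddb2 measured 221, 291, 253, 270.5 and 292 in mutants against 327, 339.7, 359.6, 295 and 316 in wild types, a log2 difference of -0.31 ± 0.11. Apart from Smad4 mutant 3, every mutant lay below all wild types of its cohort. For Eng, Ddb2 measured 334, 338, 350.1, 410.4 and 303 in mutants against 516, 427, 382, 463 and 409 in wild types, a log2 difference of -0.34 ± 0.10. Under IgG, Ddb2 measured 270.2, 212 and 264 in mutants against 363, 293 and 313 in wild types, a log2 difference of -0.38 ± 0.14. Eng mutant 4 reached the wild-type range, and the IgG mutants did not. Rrm2b, the p53-inducible subunit of ribonucleotide reductase, spanned 589 to 809.5, 634 to 757, 813 to 950.1 and 750.4 to 897 in the Smad4, Alk1, Eng and IgG mutants. Its wild types spanned 584 to 754, 707 to 911, 838 to 988 and 749.6 to 774. Rrm2b was called lower in Alk1 mutants and was not called elsewhere.

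Of the 7 metabolic, redox, secreted and surface genes, 5 were called higher in Smad4, Eng and IgG-treated mutants alike and 4 of 6 tested in Alk1 mutants. Sesn1 was called lower in the Smad4, Eng and IgG comparisons. Beside this, 17.2%, 12.4%, 9.67% and 17.5% of all tested genes were called higher for Smad4, Eng, IgG and Alk1. The shares called lower were 15.8% for Smad4, 9.08% for Eng and 8.12% under IgG. Gdf15 encodes a secreted stress cytokine of the transforming growth factor family. Gdf15 measured 274, 217, 524, 202 and 239 in Smad4 mutants against 23.3, 20.999, 38.5, 21.3 and 17.02 in Smad4 wild types, a log2 difference of 3.44 ± 0.29. For Alk1, Gdf15 measured 36.3, 22.6, 41.1, 11.5 and 8.62 in mutants against 2.55, 4.72, 15.01, 10.4 and 9.14 in wild types, a log2 difference of 1.27. The Smad4 groups were far apart; the Alk1 values were low in both groups and overlapped, and have no standard error because the gene was below the minimum there. For Eng, Gdf15 measured 118, 154, 136, 186 and 202 in mutants against 18.6, 16.7, 13.3, 13.98 and 8.85 in wild types, a log2 difference of 3.31 ± 0.23. Under IgG, Gdf15 measured 143, 229 and 642 in mutants against 34.1, 39.3 and 33.6 in wild types, a log2 difference of 2.89 ± 0.49. Mutants were above wild types in both, and IgG mutant 3 stood well above the other mutants. Sesn2 encodes a sestrin, which restrains the growth kinase complex mTORC1. Sesn2 measured 812, 905, 923, 722 and 824 in Smad4 mutants against 381, 341, 346, 299 and 337 in Smad4 wild types, a log2 difference of 1.29 ± 0.09. For Alk1, Sesn2 measured 567, 626, 455, 419 and 427 in mutants against 358, 463, 389.9, 287 and 315 in wild types, a log2 difference of 0.46 ± 0.15. All Smad4 mutants exceeded their wild types, and 3 Alk1 mutants lay inside the wild-type range. For Eng, Sesn2 measured 1264, 1259, 1379.6, 1326 and 1065 in mutants against 496, 344, 382, 516 and 439 in wild types, a log2 difference of 1.54 ± 0.11. Under IgG, Sesn2 measured 676, 835 and 1058 in mutants against 299, 326 and 363 in wild types, a log2 difference of 1.35 ± 0.16. Neither comparison had any overlap.

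Sesn1 encodes another sestrin. Sesn1 measured 2449, 2431, 1979, 2377 and 2533 in Smad4 mutants against 2790.4, 2813, 2829, 2769 and 2522 in Smad4 wild types, a log2 difference of -0.23 ± 0.07. For Alk1, Sesn1 measured 2229, 4252, 8747, 3726 and 2639.9 in mutants against 2846, 2885, 2857, 2909 and 2690.2 in wild types, a log2 difference of 0.43 ± 0.28. Smad4 mutants lay at or below the wild types, and Alk1 mutants lay on both sides, from the lowest value, mutant 1, to the highest, mutant 3. For Eng, Sesn1 measured 3064, 2923, 3219, 3000.1 and 2782 in mutants against 3474, 3574, 3414, 3495 and 3336 in wild types, a log2 difference of -0.21 ± 0.04. Under IgG, Sesn1 measured 2337, 2225 and 2166 in mutants against 2928, 2547 and 2667 in wild types, a log2 difference of -0.27 ± 0.07. All mutants lay below all wild types in these comparisons. Dcxr encodes a reductase of dicarbonyls and xylulose. Dcxr measured 564, 623, 513, 536 and 499 in Smad4 mutants against 152, 134, 153, 86.8 and 105 in Smad4 wild types, a log2 difference of 2.13 ± 0.16. For Alk1, Dcxr measured 184, 145, 104, 190.1 and 142 in mutants against 62.2, 88.5, 84.5, 124 and 109 in wild types, a log2 difference of 0.70 ± 0.21. Smad4 mutants were far above their wild types, and Alk1 mutant 3 lay inside the wild-type range. For Eng, Dcxr measured 690.0, 695, 635, 755 and 887 in mutants against 169, 123, 126, 188 and 160.4 in wild types, a log2 difference of 2.25 ± 0.13. Under IgG, Dcxr measured 314, 411 and 598 in mutants against 154, 156 and 120.3 in wild types, a log2 difference of 1.57 ± 0.24. In both, the lowest mutant was above the highest wild type.

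Sulf2 encodes an extracellular enzyme that trims sulfate from heparan sulfate, and its exons overlap Ncoa3 on the other strand. Sulf2 measured 2349.8, 2739, 3107, 2415 and 2328 in Smad4 mutants against 1383, 1019, 1057, 622 and 959 in Smad4 wild types, a log2 difference of 1.39 ± 0.18. For Alk1, Sulf2 measured 846, 1089, 738, 791 and 765 in mutants against 596, 586, 513, 438 and 575 in wild types, a log2 difference of 0.64 ± 0.12. Mutants were above wild types in every pairing of libraries. For Eng, Sulf2 measured 2627, 2911, 3377, 3228 and 2709 in mutants against 1123, 928, 939, 1426 and 939.6 in wild types, a log2 difference of 1.48 ± 0.12. Under IgG, Sulf2 measured 1287, 1979 and 2532 in mutants against 1036, 977 and 839 in wild types, a log2 difference of 0.97 ± 0.22. The same was seen here, narrowly for IgG mutant 1. Clca2 encodes a chloride channel accessory protein. Clca2 measured 442, 416, 380.1, 654 and 569 in Smad4 mutants against 105, 113, 111, 99.96 and 109 in Smad4 wild types, a log2 difference of 2.15 ± 0.15. For Alk1, Clca2 measured 249, 238, 187, 274 and 201 in mutants against 64.5, 108, 83.6, 112 and 108 in wild types, a log2 difference of 1.27 ± 0.18. The groups did not overlap in either cohort. For Eng, Clca2 measured 235, 228, 382, 325 and 273 in mutants against 84.4, 109.7, 110.5, 119.6 and 133 in wild types, a log2 difference of 1.35 ± 0.17. Under IgG, Clca2 measured 159.8, 173 and 337 in mutants against 47.04, 79.97 and 48.6 in wild types, a log2 difference of 1.85 ± 0.34. Nor did they here, and IgG mutant 3 was the highest mutant. Fdxr, the ferredoxin reductase of mitochondria, spanned 142 to 184, 109 to 145, 241 to 312 and 182 to 183 in the Smad4, Alk1, Eng and IgG mutants, and 141 to 220.1, 142 to 201, 191 to 274 and 129 to 186 in their wild types. It overlapped between groups in all 4 comparisons and was not called.

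The size of the differences was then set side by side between cohorts, which share no library. The log2 difference of Smad4 exceeded that of Alk1 for 27 of the 34 genes, for 19 of them by more than 2 standard errors of the difference, and 2 went the other way by as much. Eng exceeded Alk1 for 26 genes, for 21 by more than 2 standard errors, with 2 the other way. Smad4 exceeded Eng for 20 genes and was below it for 14, and 6 and 1 passed 2 standard errors. Of all genes tested in both tables, 13.2% passed 2 standard errors with Smad4 above Alk1 and 14.5% with Alk1 above Smad4. The shares were 16% and 16.6% for Eng above and below Alk1, and 13.5% and 15.1% for Smad4 above and below Eng. The genes were chosen with these effects known, so nothing is read from their counts. For Phlda3 the Smad4 minus Alk1 difference was 1.76 ± 0.16, for Zmat3 1.64 ± 0.13, for Ccng1 1.37 ± 0.14 and for Aen 1.33 ± 0.15. For Cdkn1a the Smad4 minus Alk1 difference was -0.003 ± 0.31 and the Eng minus Alk1 difference -0.33 ± 0.30. Plk2 was among the genes with a larger difference in Alk1, with an Eng minus Alk1 value of -1.004 ± 0.33. Pmaip1 was the gene with an effect larger in Eng than in Smad4 by more than 2 standard errors, with a Smad4 minus Eng value of -0.92 ± 0.18. The Alk1 pups had a lower and later tamoxifen dose and were younger, which cannot be told apart from the gene that was targeted.

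**Figure D4:**
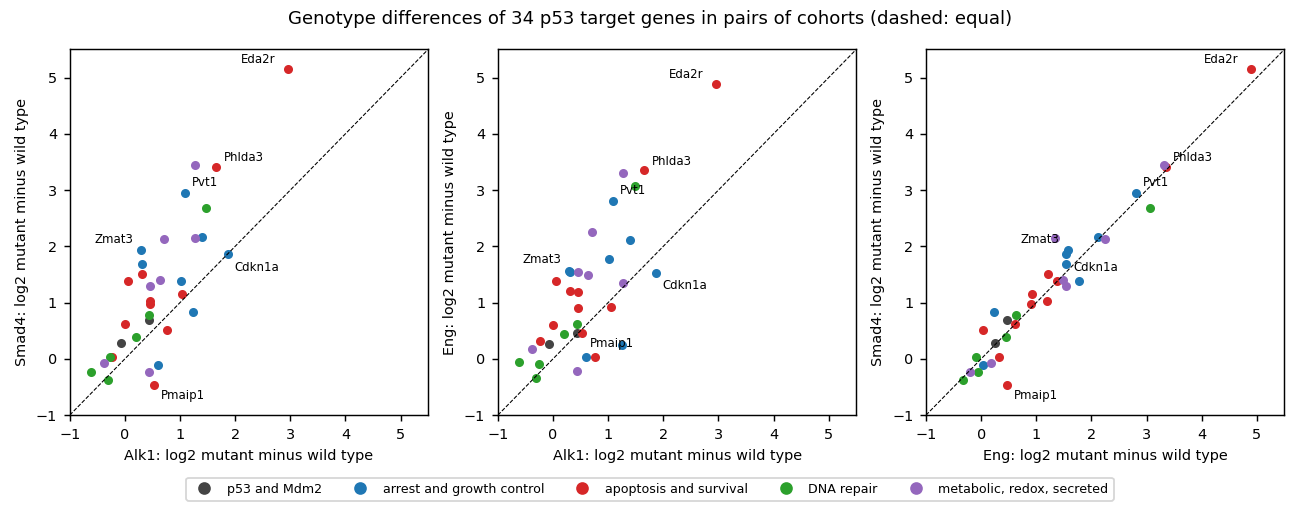
Each point is a gene, with the log2 mutant minus wild-type difference of a cohort on either axis and a dashed line of equal values. Against Alk1, 27 of the 34 genes lie above the line for Smad4 and 26 for Eng. Smad4 and Eng values lie near the line apart from genes such as Pmaip1. The genes were chosen with these effects known, so nothing is read from the counts.

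Libraries of a group also differed among themselves. The median over the 34 genes, relative to the wild types of the same table, was 1.03, 1.05, 0.99, 1.21 and 1.24 in Smad4 mutants 1 to 5, 0.41, 0.70, 0.81, 0.40 and 0.25 in Alk1 mutants 1 to 5 and 1.17, 0.95, 1.04, 1.07 and 1.12 in Eng mutants 1 to 5. Untreated columns carry no replicate number of the labels, so these numbers are file order. Alk1 mutant 3 had the highest value of its group for 14 genes and the lowest for 12, and mutant 1 the highest for 10. In the same Alk1 mutants, the 10 immediate early markers summed to 1457, 2194, 4152, 1541 and 1366 ppm, against 1711, 1509, 1416, 1702 and 1198 ppm in the wild types. The stress gene Atf3 measured 1393, 1925, 9254, 1947 and 1607 in Alk1 mutants against 1084, 909, 1069, 897 and 796 in wild types. Alk1 mutant 3 was the highest library of the cohort in these markers as well as in Cdkn1a, Btg2, Plk2 and Sesn1. The glucocorticoid-responsive gene Zbtb16 measured 39.00, 4594, 5907, 2563 and 1529.6 in Alk1 mutants against 33.4, 23.7, 20.2, 21.7 and 16.04 in wild types. Mutant 1, low in Cdkn1a, Fas and Sesn1, was the lowest mutant in Zbtb16. Elsewhere Zbtb16 was not called. Fkbp5, also glucocorticoid-responsive, was called higher in Alk1, Smad4 and Eng mutants and not under IgG. It spanned 1106 to 1492 in Smad4 mutants against 705 to 831 in wild types, and 1382 to 1795 against 940 to 1137 for Eng. Immediate early markers summed to 1262 to 2826 ppm in Smad4 mutants against 2658 to 4287 ppm in wild types. Of the 10, 3 were called lower in Smad4, 1 lower under IgG, 1 higher in Alk1 and none in Eng. The part of these markers in the p53 values was not tested.

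Column names with a library code split each untreated cohort. Within the Smad4 libraries that carry the code L146 the median over the 34 genes was 1.23, and within those without it 1.06. For Alk1 the medians were 0.34 with the code L219 and 0.60 without. For Eng they were 1.03 within L210 and 1.07 within L216, which holds 1 mutant and 1 wild type. The sign of the difference was the same in both parts for 32 of the 34 members in the Smad4, 30 in the Alk1 and 31 in the Eng cohort. The members were chosen with the differences of these same libraries in view, so nothing is read from these counts. The share over all genes was not computed.

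Under IgG, 3 Smad4 mutants stood against 3 wild types. They differed in how much Smad4 transcript was left, with 3030.1, 2099 and 1817 in mutants 1, 2 and 3 against 5975, 5945 and 5625 in the wild types. Over the 34 genes the median relative to the wild types was 0.53, 0.89 and 1.34 in the same mutants. In 26 of the 34 genes the values increased in the order mutant 1, 2, 3, which 23.8% of all tested genes did. The pericyte markers summed to 2167, 1470.2 and 1118 ppm in those mutants against 3124, 2541 and 2311 ppm in the wild types, so they moved in the reverse order. Their part was not tested, and 3 libraries do not allow a correlation. Without mutant 2, 15 members were called higher and 467 of all genes were called, against 23 and 2480 with it. The Smad4 minus IgG difference of effects passed 2 standard errors for 3 genes with Smad4 larger and for none with IgG larger, beside 6.16% and 4.44% of all genes tested in both tables. Cdkn1a was among the 3, at 0.83 ± 0.31.

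LC10-treated Smad4 mutants were in a table of their own, so treatment and table cannot be told apart and no test was made. Values were brought to a common scale with size factors, the median over genes of each library's ratio to the geometric mean of the 9 libraries. On it, all 3 LC10 mutants lay above all 3 IgG wild types for 25 of the 34 genes and below them for 4, where 22.9% and 21.4% of all 13939 tested genes did. Against the IgG mutants, all LC10 mutants lay above for 4 genes and below for 1, where 8.82% and 9.5% of all tested genes did. Those above were Gdf15, Eda2r, Clca2 and Zmat3, and Perp lay below. Gdf15 measured 1122, 667 and 779.9 in LC10 mutants, 143, 229 and 641 in IgG mutants and 34.3, 39.3 and 33.5 in IgG wild types. Eda2r measured 2043, 1493 and 1795, 689, 943 and 1446 and 35.2, 39.6 and 45.98 in the same groups. For Cdkn1a the values were 9864, 7415 and 8275 in LC10 mutants, 4878, 6210.3 and 9262 in IgG mutants and 4696, 2798 and 2528 in IgG wild types, and the LC10 and IgG mutants overlapped. The median difference over the 34 genes, LC10 minus IgG mutants, was 0.21 on the log2 scale, and leaving out a library moved it between 0.08, without IgG mutant 1, and 0.36, without IgG mutant 3. Smad4 itself measured 1996, 2215 and 1979 in LC10 mutants and 3029, 2099 and 1814 in IgG mutants.

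**Figure D5:**
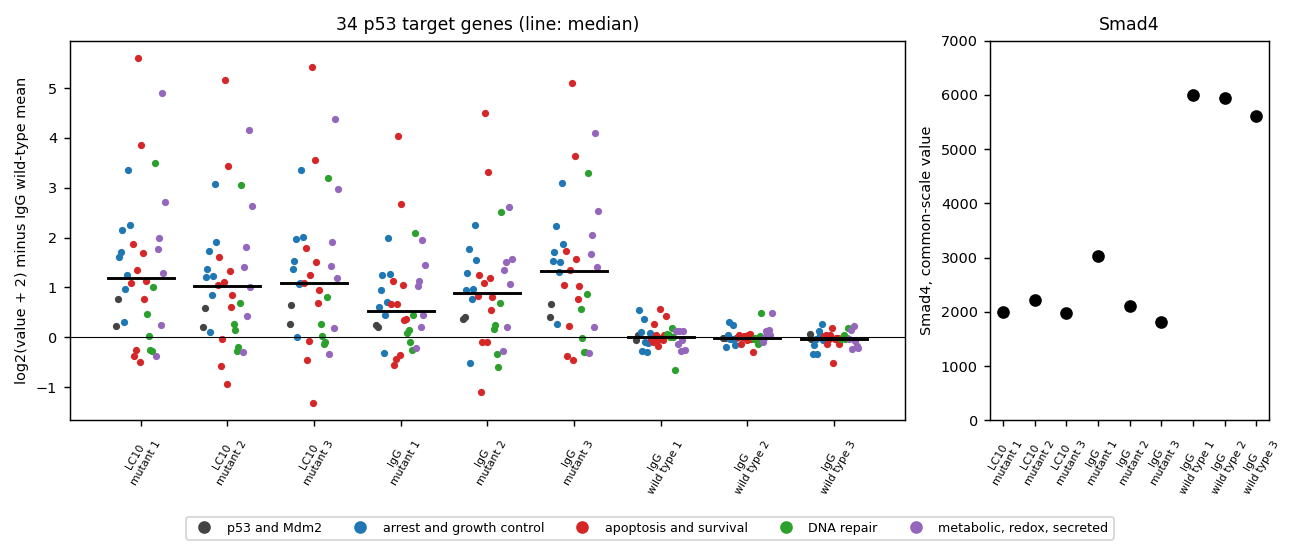
Left, the 34 genes in each antibody library as log2(value + 2) minus the IgG wild-type mean on the common scale, with a line at the median; right, the Smad4 value of the same libraries. Medians are 1.18, 1.03 and 1.09 in the LC10 mutants, and 0.53, 0.89 and 1.34 in IgG mutants 1 to 3, the library with the most Smad4 left, IgG mutant 1, having the lowest median.

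A further 43 genes named as p53 targets were listed for their described role, with earlier results of these data already known. The lists of regulators and of cell cycle genes below were also chosen with those results known. Counts and p-values from these lists are therefore a description, and no independent check on the genes above. The 43 genes were tested with limma and Benjamini-Hochberg adjustment over all genes. Means carry SDs over 5 libraries a group, or 3 under IgG, and log2 differences carry standard errors. In Smad4 mutants 25 were called higher and 2 lower of 42 tested, in Alk1 mutants 18 and 2 of 41, in Eng mutants 17 and 2 of 43, and under IgG 16 and 2 of 42, beside the background shares given above. Without IgG mutant 2 the count higher under IgG was 8. Their median log2 differences were 0.33, 0.25, 0.28 and 0.25. Ephx1, the microsomal epoxide hydrolase, rose to 3943 ± 167 in mutants against 899 ± 88.7 in wild types (log2 difference 2.14 ± 0.07, adjusted p = 1.5e-09) of the Eng cohort. In the Smad4 cohort Ephx1 averaged 3340.0 ± 245 in mutants against 826 ± 95.9 in wild types (log2 difference 2.02 ± 0.08, adjusted p = 7.3e-08), and under IgG 3005 ± 659.6 in mutants against 861 ± 102 in wild types (log2 difference 1.78 ± 0.16, adjusted p = 0.0021). The difference of these effects from that in Alk1 was 1.82 ± 0.10, adjusted p = 2.9e-13 for Smad4 and 1.94 ± 0.10, adjusted p = 1.7e-13 for Eng. Ptprv, a receptor phosphatase gene induced by p53 in the mouse, averaged 385 ± 115 in mutants against 11.9 ± 4.34 in wild types (log2 difference 4.80 ± 0.32, adjusted p = 1.9e-06) of the Smad4 cohort and 235 ± 114 in mutants against 13.7 ± 6.47 in wild types (log2 difference 3.89 ± 0.48, adjusted p = 0.005) under IgG.

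Epha2, an ephrin receptor, averaged 6119.6 ± 381 in mutants against 2198 ± 89.8 in wild types (log2 difference 1.48 ± 0.05, adjusted p = 2.4e-08) for Smad4, 5942 ± 755 in mutants against 3136 ± 369.5 in wild types (log2 difference 0.92 ± 0.10, adjusted p = 3.3e-05) for Alk1 and 5803 ± 799 in mutants against 2534 ± 288 in wild types (log2 difference 1.19 ± 0.11, adjusted p = 0.0025) under IgG. Ckap2, a spindle protein, averaged 1594 ± 93.8 in mutants against 816 ± 65.4 in wild types (log2 difference 0.97 ± 0.07, adjusted p = 3.4e-06) for Smad4 and 2093 ± 164 in mutants against 859 ± 77.9 in wild types (log2 difference 1.28 ± 0.08, adjusted p = 6.2e-07) for Alk1. Pidd1, which carries a death domain, averaged 464 ± 45.3 in mutants against 274 ± 20.04 in wild types (log2 difference 0.76 ± 0.10, adjusted p = 0.00011) for Alk1.

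Cpt1c, a carnitine palmitoyltransferase, averaged 651 ± 57.8 in mutants against 252 ± 28.7 in wild types (log2 difference 1.37 ± 0.09, adjusted p = 2.4e-06) in the Eng cohort. The thiamine transporter gene Slc19a2 averaged 799.7 ± 46.9 in mutants against 255 ± 52.9 in wild types (log2 difference 1.66 ± 0.12, adjusted p = 3.4e-06) there, the ribosomal protein gene Rps27l 2635 ± 191 in mutants against 1408 ± 91.6 in wild types (log2 difference 0.90 ± 0.06, adjusted p = 1.8e-06), and the apoptosome gene Apaf1 4108 ± 70.5 in mutants against 2838 ± 64.8 in wild types (log2 difference 0.53 ± 0.03, adjusted p = 3.4e-07). The effect in Eng exceeded that in Alk1 by 1.61 ± 0.17, adjusted p = 3.4e-07, for Cpt1c, while for Apaf1 the Eng minus Alk1 difference was 0.08 ± 0.08, adjusted p = 0.54. Trp53i11 averaged 24563 ± 2654 in mutants against 6911 ± 911 in wild types (log2 difference 1.83 ± 0.10, adjusted p = 4.9e-07) in Alk1 and 7786 ± 144 in mutants against 4469 ± 515 in wild types (log2 difference 0.81 ± 0.08, adjusted p = 0.0028) under IgG, so it rose more in Alk1 than in Eng, with an Eng minus Alk1 difference of -1.47 ± 0.24, adjusted p = 0.00013. Cyfip2, which encodes a partner of the FMRP protein, fell, to 244 ± 34.9 in mutants against 973 ± 132 in wild types (log2 difference -1.99 ± 0.12, adjusted p = 5.2e-07) in Alk1 and to 281 ± 27.96 in mutants against 809.5 ± 158 in wild types (log2 difference -1.504 ± 0.15, adjusted p = 0.0029) under IgG. Of the 43 genes, the effects of Smad4 and Alk1 differed for 18, with the signed log2 effect higher in Smad4 for 13. Those of Eng and Alk1 differed for 14, 9 of them higher in Eng, and those of Smad4 and Eng for 7, 6 of them higher in Smad4. Higher refers to the sign and not the size, so Cyfip2, which fell less in Eng than in Alk1, counts as higher in Eng. Over all 14701 genes of the joint fit 15.9%, 14.5% and 8.04% differed: 7.77% were higher in Smad4 and 8.15% in Alk1, 6.72% higher in Eng and 7.8% in Alk1, and 4.16% higher in Smad4 and 3.88% in Eng.

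Of 21 regulators of p53, 4 were called higher and 2 lower of 19 tested in Smad4 mutants, 4 and 2 of 18 in Alk1, 3 and 1 of 19 in Eng, and 1 and 0 of 19 under IgG. Of all tested genes 33%, 33.2%, 21.5% and 17.8% were called in either direction, so these counts are near or under the background and the values that follow are those of single genes. Mdm4, the relative of Mdm2 that inhibits p53, fell to 4493 ± 273 in mutants against 5326 ± 338 in wild types (log2 difference -0.25 ± 0.06, adjusted p = 0.01) for Smad4 and to 6693 ± 377 in mutants against 7422 ± 336 in wild types (log2 difference -0.15 ± 0.04, adjusted p = 0.031) for Eng. The checkpoint kinase gene Chek1 averaged 443 ± 75.8 in mutants against 252 ± 61.9 in wild types (log2 difference 0.83 ± 0.18, adjusted p = 0.004) in Alk1 and 441 ± 50.6 in mutants against 259 ± 40.1 in wild types (log2 difference 0.76 ± 0.12, adjusted p = 0.00071) in Eng, and Chek2 941 ± 37.1 in mutants against 771 ± 31.5 in wild types (log2 difference 0.29 ± 0.05, adjusted p = 0.0017) in Eng and 653 ± 23.6 in mutants against 452 ± 30.1 in wild types (log2 difference 0.53 ± 0.09, adjusted p = 0.011) under IgG. Ppp1r13l, which encodes the p53 inhibitor iASPP, averaged 230.0 ± 48.1 in mutants against 124 ± 20.1 in wild types (log2 difference 0.87 ± 0.17, adjusted p = 0.0032) for Smad4 and 386 ± 134 in mutants against 135 ± 26.9 in wild types (log2 difference 1.45 ± 0.24, adjusted p = 0.00062) for Alk1. Ppp1r13b, which encodes the cofactor ASPP1, averaged 8202 ± 1497 in mutants against 5732 ± 339 in wild types (log2 difference 0.500 ± 0.11, adjusted p = 0.004) in Alk1. Rchy1, a ubiquitin ligase gene, averaged 1259 ± 51.4 in mutants against 1063 ± 74.4 in wild types (log2 difference 0.25 ± 0.05, adjusted p = 0.0072) in Eng and 1217 ± 158 in mutants against 953 ± 74.7 in wild types (log2 difference 0.34 ± 0.09, adjusted p = 0.018) for Smad4. Daxx, a histone chaperone gene, averaged 1239 ± 136 in mutants against 1026 ± 20.6 in wild types (log2 difference 0.26 ± 0.07, adjusted p = 0.02) for Smad4, and Prkdc, the DNA-dependent protein kinase gene, 861 ± 173 in mutants against 1182 ± 155 in wild types (log2 difference -0.47 ± 0.13, adjusted p = 0.016) in Alk1. The calls of Chek2, Daxx, Rchy1, Ppp1r13l and Mdm4 in Smad4 mutants were lost with the carryover markers as a covariate.

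Genes described as held down by p53 and p21, many through the DREAM complex, were mostly called higher. They were 18 genes, of the cell cycle apart from the telomerase gene Tert. In Smad4 mutants 13 of 18 were called higher, in Alk1 mutants 17, in Eng mutants 17 and under IgG 15, with none called lower, beside the background shares given above; without IgG mutant 2 the count under IgG was 1. Their median log2 differences were 0.53, 1.16, 0.75 and 0.60. The mitotic kinase gene Plk1 averaged 1148 ± 66.6 in mutants against 692 ± 54.4 in wild types (log2 difference 0.73 ± 0.07, adjusted p = 2.9e-05) for Smad4, 1503 ± 133 in mutants against 735 ± 74.4 in wild types (log2 difference 1.03 ± 0.08, adjusted p = 5.6e-06) for Eng and 1252 ± 185 in mutants against 699 ± 94.9 in wild types (log2 difference 0.84 ± 0.13, adjusted p = 0.01) under IgG. Cyclin B1, Ccnb1, averaged 2319.9 ± 169.7 in mutants against 866 ± 83.1 in wild types (log2 difference 1.42 ± 0.08, adjusted p = 4.9e-07) in Alk1 and 1423 ± 100.5 in mutants against 842 ± 95.00 in wild types (log2 difference 0.76 ± 0.09, adjusted p = 9.1e-05) for Smad4. Cyclin A2, Ccna2, averaged 5437 ± 226 in mutants against 2379 ± 210.5 in wild types (log2 difference 1.20 ± 0.07, adjusted p = 5e-07) in Alk1, 3173 ± 294 in mutants against 2075 ± 228 in wild types (log2 difference 0.61 ± 0.09, adjusted p = 0.00044) for Smad4 and 3818 ± 253 in mutants against 2279 ± 252 in wild types (log2 difference 0.75 ± 0.07, adjusted p = 3.8e-05) for Eng. The replication helicase gene Mcm5 averaged 2940.4 ± 154 in mutants against 2021 ± 219.6 in wild types (log2 difference 0.55 ± 0.08, adjusted p = 0.00036) for Smad4, 4169 ± 205 in mutants against 2434 ± 275 in wild types (log2 difference 0.78 ± 0.07, adjusted p = 1.5e-05) for Eng and 3042 ± 206 in mutants against 1984 ± 297 in wild types (log2 difference 0.62 ± 0.11, adjusted p = 0.012) under IgG. Of the 18 genes, the effect in Alk1 exceeded that in Smad4 for 14 and that in Eng for 8 in the joint fit.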

How the data were processed

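Endothelial cells were taken from whole brain with PECAM-coated beads and sequenced with Illumina TruSeq RNA v2 chemistry, per the labels' protocols; that kit does not mark strand. The build was mm10, per the submitters' processing notes; aligner, counter and normalization: not given in the sources used here. Each of the 5 deposited tables (3 cohorts, IgG, LC10) holds the authors' normalized signal, although the labels name raw counts: 14.4 to 24.7% of a library's values, and 27.9 to 69.8% of its low values, lay within 0.05 of a whole multiple of the value estimated for 1 read. For this reason limma 3.58.1 (R 4.3.3), with its trend option, was run on log2(value + 2), without further scaling, for genes of at least 20 in 5 libraries (3 under IgG); differences of low genes are understated. Each table was fitted alone, and the 30 untreated libraries together for differences between cohorts of genes outside the list. Untreated columns were matched to samples by group. A further 3 columns, of LC10-treated wild types, match no described sample and were not used. Names of date form or repeated (26 of 24972) were left out. Members, lists and tests were chosen with earlier results of these data known. Values in every library are given for the 29 members whose groups did not overlap in at least 2 of 4 comparisons or whose log2 difference reached 1, and ranges for the other 5; of other lists, up to 5 genes per comparison with the smallest adjusted p; 1 such gene is not reported here. Gene positions came from GENCODE M21, in which all 34 members and 98.1% of symbols were found. The procedure was tested on simulated data with independent noise for each gene and library, so effects shared within a library or batch were not covered. Alternatives were pseudocount, filter, scaling, library codes, carryover markers, joint fit, replicate block and leaving out each library.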

Additional observations from a re-analysis of the deposited data

Results flagged for a closer look

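Of 204 groups of 5 libraries, over the 34 genes, 12 had a library that stood far from the others by Dixon's criterion, which chance alone meets in about 1 in 20 groups. In Alk1 mutant 3 these were Btg2 (15048, next 5689), Plk2 (46294, next 20685), Bbc3 (793, next 454) and Tnfrsf10b (1853, next 1047), all of them high. The same library was the highest of its cohort in immediate early markers and in Atf3, whose part was not tested. Other high values were Gtse1 in Eng mutant 3 (1892, next 1711), Psrc1 in Alk1 wild type 3 (179.8, next 138), Perp in Smad4 wild type 1 (333, next 205), Xpc in Smad4 wild type 2 (1497, next 1271) and Gdf15 in Smad4 mutant 3 (524, next 274). Low values were Sesn1 in Alk1 wild type 5 (2690.2, next 2846), Sesn1 in Smad4 mutant 3 (1979, next 2377) and Sesn1 in Smad4 wild type 5 (2522, next 2769).

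Among p53 targets outside the list, 18, 14 and 7 had genotype effects that differed in the joint limma fit for Smad4 minus Alk1, Eng minus Alk1 and Smad4 minus Eng. Those of them that the report names are given as differences of log2 effects, and the others are not listed. For Smad4 minus Alk1 they were Apaf1 (0.26 ± 0.08, adjusted p = 0.018), Rps27l (0.67 ± 0.16, adjusted p = 0.004), Ephx1 (1.82 ± 0.10, adjusted p = 2.9e-13), Slc19a2 (1.000 ± 0.21, adjusted p = 0.0011), Cpt1c (1.36 ± 0.17, adjusted p = 2.6e-06), Epha2 (0.56 ± 0.11, adjusted p = 0.00058) and Ptprv (2.79 ± 0.62, adjusted p = 0.0021). For Eng minus Alk1 they were Trp53i11 (-1.47 ± 0.24, adjusted p = 0.00013), Rps27l (0.49 ± 0.16, adjusted p = 0.039), Ephx1 (1.94 ± 0.10, adjusted p = 1.7e-13), Cyfip2 (1.05 ± 0.33, adjusted p = 0.033), Slc19a2 (0.83 ± 0.21, adjusted p = 0.0068), Cpt1c (1.61 ± 0.17, adjusted p = 3.4e-07), Epha2 (-0.39 ± 0.11, adjusted p = 0.015) and Ptprv (2.17 ± 0.62, adjusted p = 0.017). For Smad4 minus Eng they were Trp53i11 (1.01 ± 0.24, adjusted p = 0.0082) and Epha2 (0.94 ± 0.11, adjusted p = 9.6e-07). Among the 34 genes, Pmaip1 was higher in all Eng mutants than in all their wild types, by 0.47, and lower in all IgG-treated Smad4 mutants, with a log2 difference of -0.67; the difference was not tested.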

How the results depend on the processing

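Across the alternatives tried, no member whose difference was called changed sign. The median over the 34 genes stayed positive in all 4 comparisons. With each library divided by its total it was 1.01 for Smad4, and the Smad4 minus Eng median was -0.062, of the other sign than the 0.03 as deposited, and was 0.10 with quantile normalization. Calls that were higher made up 37.2% for Smad4 and 41.1% for Alk1 under division by the total, against 52.1% and 52.7% as deposited, while the median of all genes shifted by at most 0.1. With carryover markers as a covariate, Smad4 calls were 16 other targets higher, 1 regulator and 2344 of all genes, IgG calls were 14 members higher, 2 regulators and 1106 of all genes, and 4 other targets differed between Smad4 and Eng. With library code as a term 10 Smad4 regulators were called. Libraries without a code gave 15 other targets higher, 1 regulator and 2461 of all genes for Smad4, and 3 regulators, 2005 of all genes and a median of 0.60 for Alk1; libraries with a code gave medians of 1.23 for Smad4 and 0.34 for Alk1, an alternative added after seeing the data. The joint fit gave 1 regulator and 1602 of all genes for Eng. IgG regulators called were 2 with a pseudocount of 8, with the total or with quantile normalization, and 3 with the replicate block. Same-numbered IgG libraries correlated at 0.061, 0.028 and -0.073 in their deviations from group means over 13939 genes. Differently numbered ones correlated at -0.148 to 0.136. With 3 libraries a group, these values cannot tell whether libraries of the same number were paired. With the block 22 members and 15 other targets were called higher, of 2451 genes called. For the untreated cohorts, no paired analysis was possible because their columns carry no replicate numbers of the labels. Leaving out each library gave medians of 1.04 to 1.13 for Smad4, 0.40 to 0.61 for Alk1, 1.03 to 1.11 for Eng and 0.75 to 1.13 under IgG. It gave 3 to 7 Smad4 regulators and 5 to 11 other targets differing between Smad4 and Eng. Under IgG it gave 15 to 24 members, 8 to 17 other targets, 0 to 4 regulators, 1 to 15 cell cycle genes and 467 to 3047 of all genes, the lowest each time without mutant 2. Of the values of single genes and the like 3352 stayed on their side, 45 lost and 10 gained a call, 48 others moved, and none turned. The causes were not tested; depth cannot be read from these values.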
